A study of Mus musculus with 80 samples.

Results

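The 8 genes Gpr6, Gpr52, Gpr149, Gpr155, Gpr83, Gpr3, Gpr12 and Gpr26 were followed through single medium spiny neurons (MSN) of the mouse striatum. They are orphan G protein-coupled receptors or carry a receptor name from that family, and they were chosen by symbol. All 8 were among the 25160 genes of the table. Single-cell RNA sequencing (scRNA-Seq) had been made from 80 cells of the dorsomedial striatum of adult mice heterozygous for Drd1a-TdTomato and for Drd2-EGFP. Every animal carried both reporters, and the groups were set by the reporter whose fluorescence the sorted cell showed. The reporters are BAC transgenes under the control of the 2 dopamine receptor genes, Drd1 for direct and Drd2 for indirect pathway neurons, and the dissected region was marked in the living animal by an injection of India ink and a nuclear Hoechst dye. There were 40 TdTomato cells, called D1 MSN, and 40 EGFP cells. The study's text counts slightly fewer cells with usable data and does not name the ones it set aside, so every cell of the table was kept and the denominators and zeros below include them. The Drd2-EGFP reporter also labels cholinergic interneurons. As such, 2 EGFP cells with more than 100 TPM of Chat were set apart, which left 38 D2 MSN. TPM are transcript levels scaled for gene length and, by definition, to a fixed sum per cell. The values listed here did not reach the same sum in all cells, with 506588 to 958040 TPM per cell (median 852943 TPM).

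The cells came from 3 plates. According to the study's text they were pooled from several animals and experiments, but no label ties a cell to an animal. Each group was therefore treated as 1 sample and no test between groups was made. Folds are given with their values on the large plates, FACS051_5 before FACS086_4. The plates held 18, 21 and 1 D1 MSN and 16, 19 and 3 D2 MSN, in the order FACS051_5, FACS086_4 and FACS086_9. The number of genes above 1 TPM was 648 to 8657 per D1 MSN (median 5722) and 1215 to 7942 per D2 MSN (median 4927.5). The summed D2 MSN markers Drd2, Adora2a and Penk were 259 to 50460 TPM in D2 MSN, against 1.67 to 3682 TPM in D1 MSN. The cell in well D04 of FACS051_5, labelled Drd1a-TdTomato, stood apart with a summed astrocyte marker level of 13896 TPM. None of the 8 receptors was detected in it, and it stayed in the group. A receptor was called detected in a cell where it was above 1 TPM.

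A G protein-coupled receptor spans the membrane and passes a signal from outside the cell to a G protein, and a receptor is called an orphan while its natural ligand is unknown or not settled. In MSN, receptors that couple to the stimulatory proteins Gs or Golf raise cyclic AMP and those that couple to Gi lower it, which is how the dopamine receptors act in opposite directions in both pathways. Gpr3, Gpr6 and Gpr12 are close relatives that raise cyclic AMP without an added ligand, and their nearest relatives include the receptors for sphingosine 1-phosphate, lysophosphatidic acid and cannabinoids. Gpr52 also couples to stimulatory G proteins, and it is known as a receptor of striatal neurons that carry Drd2. Gpr155 differs from the rest in that it is a lysosomal protein that senses cholesterol and has a transporter-like part.

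The start regions of Gpr6 and Gpr3 are shown because these relatives lay at opposite ends of the range of levels in D2 MSN. Each run is the 250 bases before the RefSeq start of the gene (build GRCm38.p6, minus strand, written 5′ to 3′), and capitals mark the cyclic AMP response element TGACGTCA.
Gpr6, chr10:41072291-41072540: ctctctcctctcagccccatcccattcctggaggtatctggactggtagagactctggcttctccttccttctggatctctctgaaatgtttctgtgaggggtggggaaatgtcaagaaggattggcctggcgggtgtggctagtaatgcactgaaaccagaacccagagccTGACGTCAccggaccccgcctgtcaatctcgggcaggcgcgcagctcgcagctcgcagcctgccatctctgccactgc
Gpr3, chr4:133212537-133212786: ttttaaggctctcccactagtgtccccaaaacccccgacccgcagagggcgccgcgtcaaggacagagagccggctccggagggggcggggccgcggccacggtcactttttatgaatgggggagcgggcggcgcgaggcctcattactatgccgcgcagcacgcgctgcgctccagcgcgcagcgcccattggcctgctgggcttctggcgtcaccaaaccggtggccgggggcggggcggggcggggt
The element in the Gpr6 window lay 78 to 71 bases before the start. Of 32851 windows of that length in the RefSeq table, 508 (1.55%) held these letters on either strand. Windows were matched for 5 of the 8 genes, with 2 windows for Gpr12, and the windows of Gpr3, Gpr12, Gpr155 and Gpr83 did not hold the 8 letters. The shorter TGACG, which is part of the full element, was found in the Gpr6, Gpr3, Gpr155 and Gpr83 windows and in 17.8% of all windows. The GC box GGGCGG was found for Gpr3, Gpr155 and 1 of the Gpr12 windows, and in 32.7% of all. G and C made up 58.4% of the Gpr6 window and 70.8% of the Gpr3 window, against a median of 52.4% over all windows. A match describes these letters only, and binding was not measured.

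Gpr6 and Gpr52 were found in D2 MSN and not, above 1 TPM, in D1 MSN. Gpr6 (chr10:41069977-41072285, minus strand) was detected in 30 of 38 D2 MSN, and in 27 of these it was above 10 TPM. Its level in D2 MSN ran from 0 to 585 TPM with a median of 173 TPM. Where it was found, the median was 236 TPM and the lowest value 2.10 TPM, so that most D2 MSN were either high or near 0. In the 40 D1 MSN the highest value was 0.887 TPM, 9 cells were listed above 0, and the cells of both groups overlapped only through the 8 D2 MSN at or below 1 TPM. The share of D2 MSN with Gpr6 was 15 of 16 on FACS051_5, 13 of 19 on FACS086_4 and 2 of 3 on FACS086_9, and the D2 MSN mean was 239, 188 and 95.7 TPM on these plates. The log2 fold of D1 over D2 MSN, taken like all others here between means of TPM plus 1, was -7.48, and it came to -7.80 and -7.29 within the large plates. Both cholinergic interneurons were listed at 0 for Gpr6, although the same reporter had labelled them.

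Gpr52 (chr1:160574717-160579704 in RefSeq) was listed at 0 in all 40 D1 MSN, which by counting error alone allows a share of up to 8.81%. Among D2 MSN it was detected in 17 of 38 cells (44.7%, 95% interval 28.6% to 61.7%), with a median of 135 TPM where it was found and a highest value of 640 TPM. The remaining 21 D2 MSN were at exactly 0, so its median over D2 MSN was 0. Its mean in D2 MSN was 82.5 TPM, and 67.4 TPM without the highest cell, which held 20.4% of the summed TPM. No fold is given against a group listed at 0. On the plates it was found in 11 of 16, 6 of 19 and 0 of 3 D2 MSN, and the means on the large plates were 137 and 49.8 TPM. The cholinergic interneurons had 0 and 1.11 TPM.

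The Gpr52 gene lies inside the span of Rabgap1l (chr1:160219174-160793211, minus strand), which codes for a regulator of small Rab GTPases. The exons of the genes shared 0 bases. Whether the counting used the strand is not given in the sources used here. Rabgap1l was detected in 29 of 40 D1 MSN, and Gpr52 was at 0 in each of these cells. In D2 MSN, Rabgap1l was detected in 23 cells, of which 13 had Gpr52 and 10 were at 0 for it, while 4 cells had Gpr52 with Rabgap1l at or below 1 TPM.

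**Figure D1:**
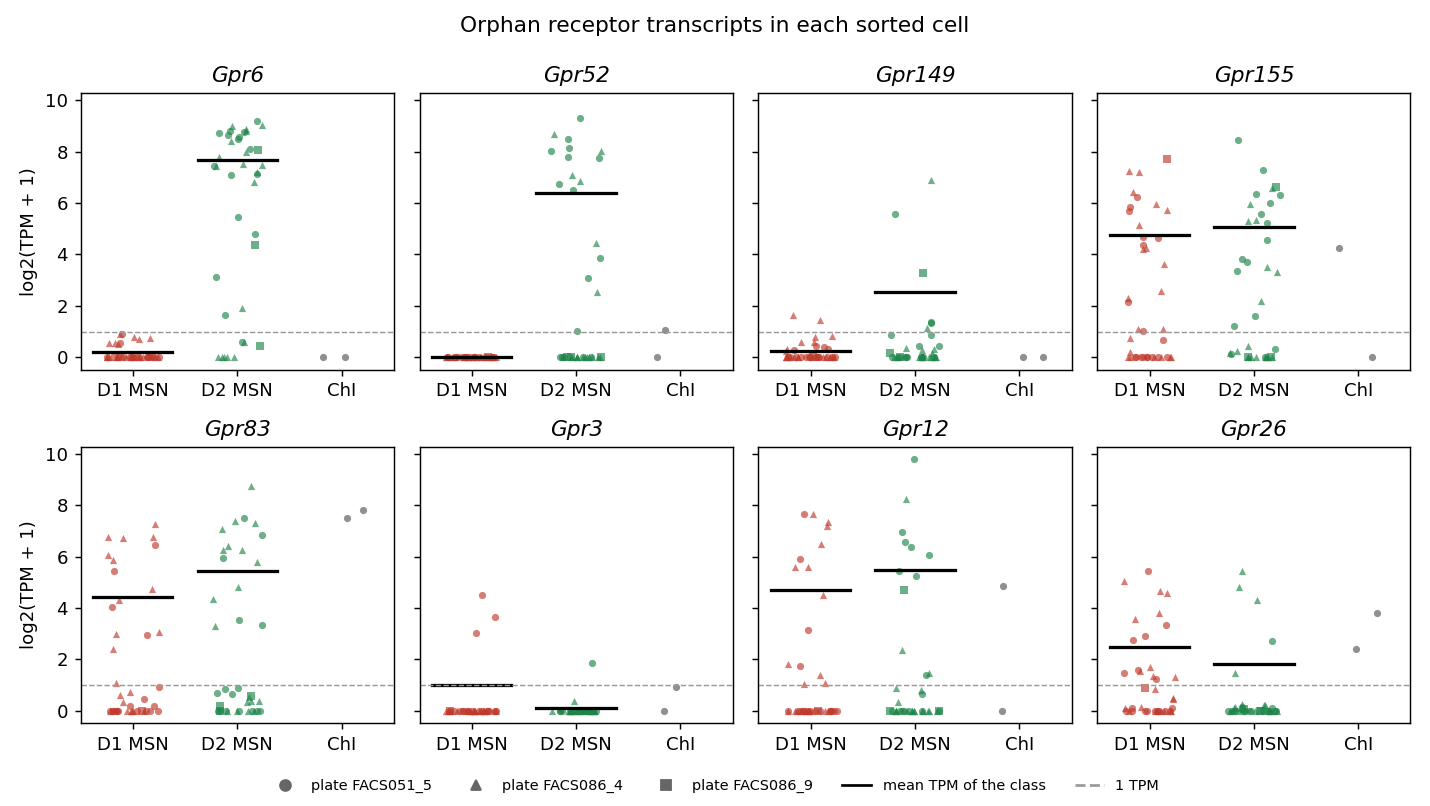
Level of each receptor in each of the 80 cells, as log2 of TPM plus 1, with D1 MSN in red, D2 MSN in green and the 2 cholinergic interneurons (ChI) in grey, spread sideways for clarity. Black lines stand for the mean TPM of the class and dashed lines for 1 TPM. Gpr6 reaches 585 TPM and Gpr52 640 TPM in D2 MSN while all D1 MSN stay under 1 TPM, whereas the cells of both classes overlap for Gpr155, Gpr83 and Gpr12.

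Gpr149 was rare, and most of its signal lay in single cells. It (chr3:62529077-62605140, minus strand) was detected in 6 of 38 D2 MSN (15.8%, 95% interval 6.02% to 31.3%) and in 2 of 40 D1 MSN (95% interval 0.611% to 16.9%). The D1 MSN values ended at 2.14 TPM. In D2 MSN the highest cells had 118 and 46.4 TPM, and the former held 65.3% of the summed TPM. The mean was 4.75 TPM in D2 MSN, 1.69 TPM without the highest cell, and 0.199 TPM in D1 MSN. The log2 fold of D1 over D2 MSN was -2.26, with -1.99 and -2.47 on FACS051_5 and FACS086_4, and it came to -1.23 once the highest cell of each subtype was left out. Of the 6 D2 MSN with Gpr149, 4 also had Gpr6, all had Adora2a, the adenosine receptor of indirect pathway neurons, and 4 had Gpr155. Both cholinergic interneurons were listed at 0.

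Gpr155 was the most widely found of the 8 receptors, in 43 of 78 MSN. It (chr2:73341506-73386572, minus strand) was detected in 22 of 40 D1 MSN (55.0%, 38.5% to 70.7%) and in 21 of 38 D2 MSN (55.3%, 38.3% to 71.4%). The D1 MSN ran from 0 to 212 TPM with a median of 1.13 TPM, and the D2 MSN from 0 to 351 TPM with a median of 2.80 TPM. The values of both groups overlapped over nearly the whole range, and the means were 26.3 and 32.3 TPM. The log2 fold of -0.28 hid opposite directions on the plates, -1.88 on FACS051_5 and 0.99 on FACS086_4. The share of D2 MSN with Gpr155 was 13 of 16 on the former and 7 of 19 on the latter, while that of D1 MSN was 8 of 18 and 13 of 21. The antisense genes Gm13703 and Gm13709 share 120 and 166 exon bases with Gpr155, and without strand their reads could not be told apart there. The cholinergic interneurons had 0 and 17.98 TPM.

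Gpr83, a receptor for which a peptide cut from proSAAS (Pcsk1n) has been proposed as ligand, was found in both subtypes. It (chr9:14860210-14870789, plus strand) was detected in 16 D1 MSN (40.0%, 24.9% to 56.7%) and in 16 D2 MSN (42.1%, 26.3% to 59.2%). Values ran to 155 TPM in D1 MSN, with a median of 0.322 TPM, and to 426 TPM in D2 MSN, with a median of 0.587 TPM. The means were 20.5 and 42.4 TPM, and the highest D2 MSN held 26.5% of its group's summed TPM. Without that cell the D2 MSN mean was 31.99 TPM. The log2 fold was -1.01, and -1.36 and -1.01 on the large plates, so that it lay just past a fold of 2. Both subtypes had the receptor more often on FACS086_4, with 12 of 21 D1 MSN and 11 of 19 D2 MSN, than on FACS051_5, with 4 of 18 and 5 of 16. Both cholinergic interneurons had Gpr83, at 182 and 225 TPM, a level that only 1 of the 78 MSN exceeded. Pcsk1n was detected in 38 D1 MSN and 37 D2 MSN, with means of 67.4 and 106 TPM.

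Gpr12 was found in 15 of 40 D1 MSN (37.5%, 22.7% to 54.2%) and in 12 of 38 D2 MSN (31.6%, 17.5% to 48.7%). The gene (chr5:146582398-146585239, minus strand) reached 203 TPM among D1 MSN and 888 TPM among D2 MSN, and the median was 0 in both. The D2 MSN mean of 44.0 TPM exceeded the D1 MSN mean of 24.7 TPM, but a single D2 MSN held 53.1% of the D2 sum, and without it the mean was 21.2 TPM. The log2 fold of -0.80 was again split between the plates, with -2.40 on FACS051_5 and 1.04 on FACS086_4. The D2 MSN with Gpr12 numbered 8 of 16 and 3 of 19 on these plates, and the D1 MSN 4 of 18 and 11 of 21. Without the highest cell of each subtype the fold over all plates was -0.06. The cholinergic interneurons had 0 and 28.0 TPM. The direction of Gpr12 and of Gpr155 between the subtypes thus depended on the plate.

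Gpr26, an orphan receptor that also raises cyclic AMP without a ligand, was detected in more D1 MSN than D2 MSN. It (chr7:131966460-131994405, plus strand) was detected in 16 D1 MSN (40.0%, 24.9% to 56.7%) and in 5 D2 MSN (13.2%, 4.41% to 28.1%). Its levels were low, with medians of 0.247 and 0 TPM and highest values of 42.3 and 42.7 TPM. On FACS051_5 it was found in 7 of 18 D1 MSN against 1 of 16 D2 MSN, and on FACS086_4 in 9 of 21 against 4 of 19. The means were 4.56 and 2.56 TPM, a log2 fold of 0.64, with 1.84 on FACS051_5 and 0.13 on FACS086_4. Among D2 MSN, 3 cells had more than 10 TPM. A level above 10 TPM was reached in 6 D1 MSN. The cholinergic interneurons had 4.24 and 12.9 TPM. The gene lies inside the annotated span of Fgfr2 on the other strand and shares 0 exon bases with it.

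Gpr3, the relative of Gpr6 and Gpr12, was nearly absent from the listed values. It (chr4:133209340-133212536, minus strand) was detected in 3 D1 MSN, with a highest value of 21.6 TPM, and in 1 D2 MSN, at 2.63 TPM. All 4 cells were on FACS051_5. Its mean over the MSN was 0.556 TPM, below the 1 TPM asked for in counts of folds. The cholinergic interneurons had 0 and 0.889 TPM. Gpr3 shares 204 exon bases with Cd164l2 on the other strand. Of the 3 relatives, Gpr6 was thus found in D2 MSN only, Gpr12 in both subtypes and Gpr3 in 4 of 78 MSN.

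**Figure D2:**
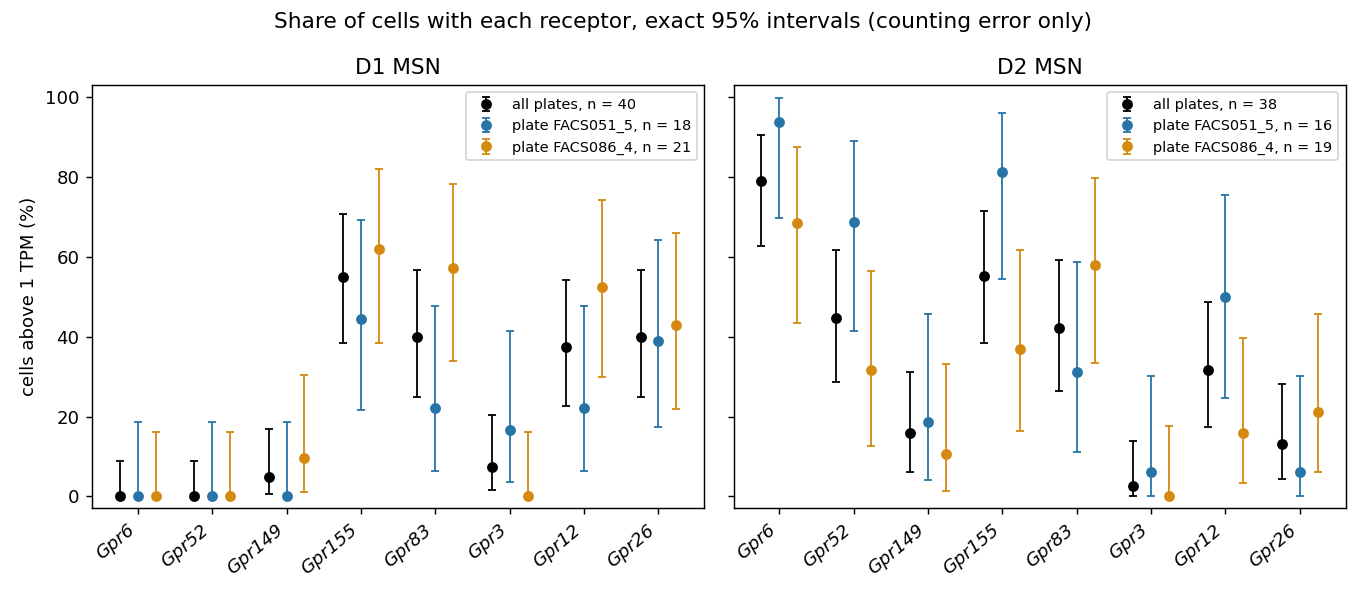
Percent of D1 MSN (left) and D2 MSN (right) with each receptor above 1 TPM, over all plates and on each large plate, with exact 95% intervals that cover counting error only. Gpr155 in D2 MSN stands at 81.3% on FACS051_5 and 36.8% on FACS086_4, and Gpr6 and Gpr52 stand at 0% in D1 MSN on both.

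Ordered by mean TPM in D2 MSN, the receptors were Gpr6, Gpr52, Gpr12, Gpr83, Gpr155, Gpr149, Gpr26 and Gpr3. Gpr6 kept its place, since its mean of 188 TPM on FACS086_4 was above the 137 TPM that Gpr52 reached on FACS051_5. Gpr52, Gpr12, Gpr83 and Gpr155 could not be ordered beyond the spread between plates. The plate means were 83.6 and 16.2 TPM for Gpr12, 23.6 and 64.9 TPM for Gpr83, and 54.5 and 13.6 TPM for Gpr155, FACS051_5 before FACS086_4. Gpr149 and Gpr26 lay below these 4 and overlapped each other. In D1 MSN, Gpr155, Gpr12 and Gpr83 led and did not differ beyond the spread between plates, followed by Gpr26, which had 3.84 and 5.35 TPM on the large plates.

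Of the 8 receptors, 7 averaged at least 1 TPM over the MSN. None had a log2 fold above 1 and 4 had one below -1, namely Gpr6, Gpr52, Gpr149 and Gpr83, where the size for Gpr52 depends on the pseudocount. The other 3, Gpr155, Gpr12 and Gpr26, lay between. Over all 15671 genes that reached this mean, 21.1% had a log2 fold above 1 and 14.8% had one below -1. The median log2 fold was -1.01 over the 7 receptors and 0.09 over all these genes. The count below -1 came to 3 without the cell in well D04, as it did with the highest cell of each subtype left out.

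The same signalling was followed in 59 listed genes of cyclic AMP signalling, which runs from G proteins over adenylyl cyclases to protein kinase A, phosphodiesterases and regulators of G protein signalling. Of these, 57 reached a mean of 1 TPM. Among the 57, 8 had a log2 fold above 1, 4 had one below -1 and 45 lay between, with a median of 0.10. Over all genes at this mean the shares were 21.1% above 1 and 14.8% below -1. Gnas, which codes for the stimulatory Gs alpha subunit, had means of 12.7 and 98.6 TPM in D1 and D2 MSN and was found in 6 and 22 cells, with log2 folds of -2.61 and -4.70 on the large plates. Gnal, which codes for the related Golf alpha subunit of the striatum, was found in 38 D1 MSN and 37 D2 MSN with means of 130 and 144 TPM. Towards D2 MSN also lay the phosphodiesterase Pde4b, with a log2 fold of -1.36 (-1.46 and -1.29 on the large plates), and Rgs8, with -1.33 (-1.34 and -1.51). Towards D1 MSN lay the inhibitory subunit Gnai1 with 1.11 (0.56 and 1.24), the beta subunit Gnb4 with 1.497 (2.43 and 2.45) and the CREB coactivator Crtc1 with 1.09 (2.19 and 0.49). These 6 genes were named because they averaged at least 10 TPM, passed a fold of 2 and had the same direction on both large plates.

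Gpr6 made up 19.3% of the summed mean TPM of all 59 rows named Gpr with a number in D2 MSN and 0.0224% in D1 MSN. Of the 51 other Gpr genes, 34 averaged at least 1 TPM. Of these 34, 10 had a log2 fold above 1 and 5 one below -1, against 21.1% and 14.8% of all genes at this mean. Gpr107 and Gpr85 were the other Gpr genes past a fold of 2 that averaged at least 10 TPM and kept 1 direction on both large plates. The fold of Gpr107 was -2.19, with -1.95 and -2.37 on these plates, and that of Gpr85 was -1.54, with -1.97 and -0.97. They were found in 16 and 17 D2 MSN and in 12 and 13 D1 MSN, unlike Gpr6 and Gpr52. Gpr21, the nearest relative of Gpr52, was detected in 4 D1 MSN and 6 D2 MSN with a log2 fold of 0.51, which was 0.84 on FACS086_4 and is not given for FACS051_5, where a subtype was listed at 0. Among the receptors related to Gpr3, Gpr6 and Gpr12, the cannabinoid receptor Cnr1 was found in 25 D1 MSN and 16 D2 MSN, S1pr1 in 3 and 0, and S1pr5 and Lpar1 in none of the MSN.

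Co-detection was counted cell by cell. Of the 38 D2 MSN, 15 had both Gpr6 and Gpr52 above 1 TPM, 15 had Gpr6 only, 2 had Gpr52 only and 6 had neither. Gpr52 was thus found in 50.0% of the 30 cells with Gpr6 and in 25.0% of the 8 without. Either receptor was found in 32 D2 MSN (84.2%, 68.7% to 94.0%) and in 0 of 40 D1 MSN, against 35 D2 MSN and 3 D1 MSN for either Drd2 or Adora2a. On FACS051_5 the numbers were 10 with both, 5 with Gpr6 only, 1 with Gpr52 only and 0 with neither, and on FACS086_4 they were 5, 8, 1 and 5.

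In the 15 cells with both receptors, Gpr6 ran from 2.10 to 585 TPM (median 361 TPM) and Gpr52 from 1.06 to 409 TPM (median 135 TPM). Gpr6 was the higher in 11 of the 15. In the 15 cells with Gpr6 only, its median was 179 TPM. The cell with the most Gpr52, at 640 TPM, had 0.525 TPM of Gpr6. Over the 38 D2 MSN, Pearson's r of log2 TPM plus 1 between the receptors was 0.18, where the cells share plates and differ in the number of genes found. The median number of genes above 1 TPM was 6106 in cells with both, 3979 with Gpr6 only, 4800 with Gpr52 only and 3491 with neither, and the part of this difference in the co-detection was not tested. Among the 26 D2 MSN with at least 4000 genes, a limit chosen after seeing the data, 21 had Gpr6, 16 had Gpr52 and 14 had both.

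The summed level of the 5 listed oligodendrocyte markers moved with Gpr52. It was 0 to 107 TPM with a median of 52.7 TPM in the 17 D2 MSN with Gpr52, and 0 to 67.9 TPM with a median of 0.447 TPM in the 21 without. Among them, Mbp was above 1 TPM in 9 of the 17 and 3 of the 21 cells, Mag in 4 and 2, Cnp in 2 and 1 and Mobp in 1 and 0. For Gpr6 the medians were 9.84 TPM in the 30 cells with and 0.516 TPM in the 8 cells without, with 0 to 84.8 and 0 to 107 TPM, and Mbp was at 0 in all 8 without. D1 MSN, all at 0 for Gpr52, had 0 to 348 TPM of these markers with a median of 3.85 TPM. The part of these markers in the result was not tested.

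Drd2 itself was found in 16 of the 17 D2 MSN with Gpr52 (94.1%) and in 10 of the 21 without (47.6%). On FACS051_5 these were 10 of 11 and 4 of 5, and on FACS086_4 they were 6 of 6 and 6 of 13. For Gpr6, 22 of its 30 cells had Drd2, and 8 of the 12 D2 MSN without Drd2 had Gpr6. Adora2a was found in 25 of the 30 cells with Gpr6 and in 15 of the 17 with Gpr52. Penk, which codes for the enkephalin precursor, was above 1 TPM in all D2 MSN and also in all 40 D1 MSN. Its median was 10688 TPM in D2 MSN and 11.4 TPM in D1 MSN.

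**Figure D3:**
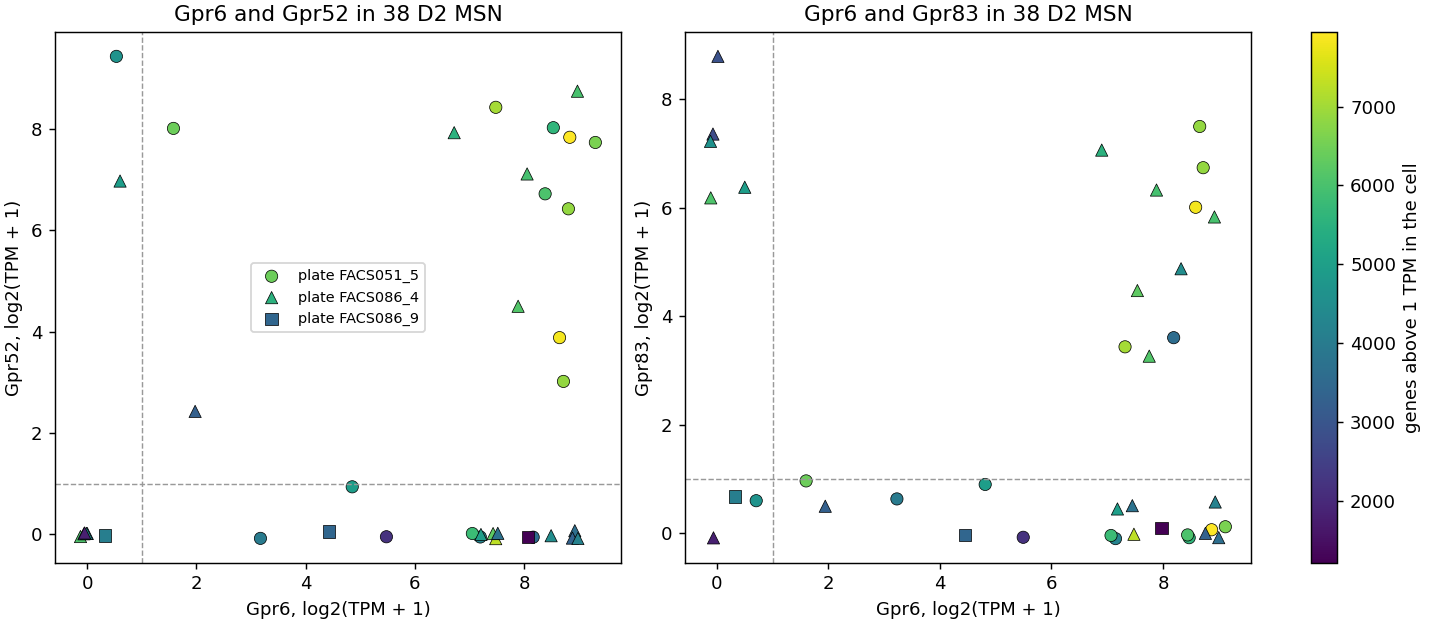
Gpr52 (left) and Gpr83 (right) against Gpr6 in the 38 D2 MSN, as log2 of TPM plus 1, with symbols for plates, colour for the number of genes above 1 TPM and points moved slightly so that they can be told apart. Dashed lines mark 1 TPM. Left, 15 cells lie in the upper right field and 2 in the upper left, and right, 5 cells from FACS086_4 lie in the upper left with 76.0 to 426 TPM of Gpr83.

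The 8 D2 MSN without Gpr6 were looked at one by one. They carried 1427 to 10628 TPM of Penk and 1802 to 6076 genes, and 2 of them had Gpr52, at 640 and 115 TPM. Gpr83 was found in 5 of these 8 cells (62.5%, 24.5% to 91.5%) and in 11 of the 30 with Gpr6 (36.7%, 19.9% to 56.1%), with overlapping intervals. The 5 cells had 76.0, 84.8, 158, 165 and 426 TPM of Gpr83, and all were on FACS086_4, where 5 of 6 cells without Gpr6 and 6 of 13 with Gpr6 had Gpr83. The mean of Gpr83 on that plate was 152 TPM without Gpr6 and 24.8 TPM with Gpr6, and the median number of genes found was 3770 and 4964 in these cells. On FACS051_5 a single D2 MSN lacked Gpr6, and its Gpr83 was 0.611 TPM. Among the 5 cells with Gpr83, the one at 158 TPM had the highest astrocyte marker sum of all D2 MSN (225 TPM), the one at 84.8 TPM had the highest oligodendrocyte marker sum (107 TPM), and the one at 426 TPM had an oligodendrocyte marker sum of 67.9 TPM. The part of these markers in the Gpr83 values was not tested. These cells were singled out after their values were seen. No cell without Gpr6 had Gpr12 (0 of 8, up to 36.9%), whereas 12 of the 30 with Gpr6 did (40.0%, 22.7% to 59.4%), with overlapping intervals. On FACS086_4, Gpr12 was found in 0 of 6 cells without Gpr6 and in 3 of 13 with it. On FACS051_5 these were 0 of 1 and 8 of 15, and the part of the plate was not tested. All 5 D2 MSN with Gpr26 also had Gpr6, which is 16.7% (5.64% to 34.7%) of the 30 against 0 of 8 (up to 36.9%). The median number of genes found was 5570 in the 30 cells and 4338 in the 8.

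Gpr155 shared many cells with the D2 MSN receptors, with 19 cells that had Gpr6 as well and 12 that had Gpr52. In D1 MSN, where neither of those was found, Gpr155, Gpr83, Gpr12 and Gpr26 were found together. Of the 16 D1 MSN with Gpr83, 15 had Gpr155, and so had 15 of the 16 with Gpr26. Gpr155 and Gpr12 shared 11 cells, Gpr83 and Gpr26 also 11, Gpr83 and Gpr12 10, and Gpr12 and Gpr26 8. Over the 40 D1 MSN, r of log2 TPM plus 1 was 0.57 between Gpr155 and Gpr26 and 0.45 between Gpr155 and Gpr83. In D2 MSN, Gpr155 and Gpr83 shared 9 cells, of 21 and 16, and r was -0.03.

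**Figure D4:**
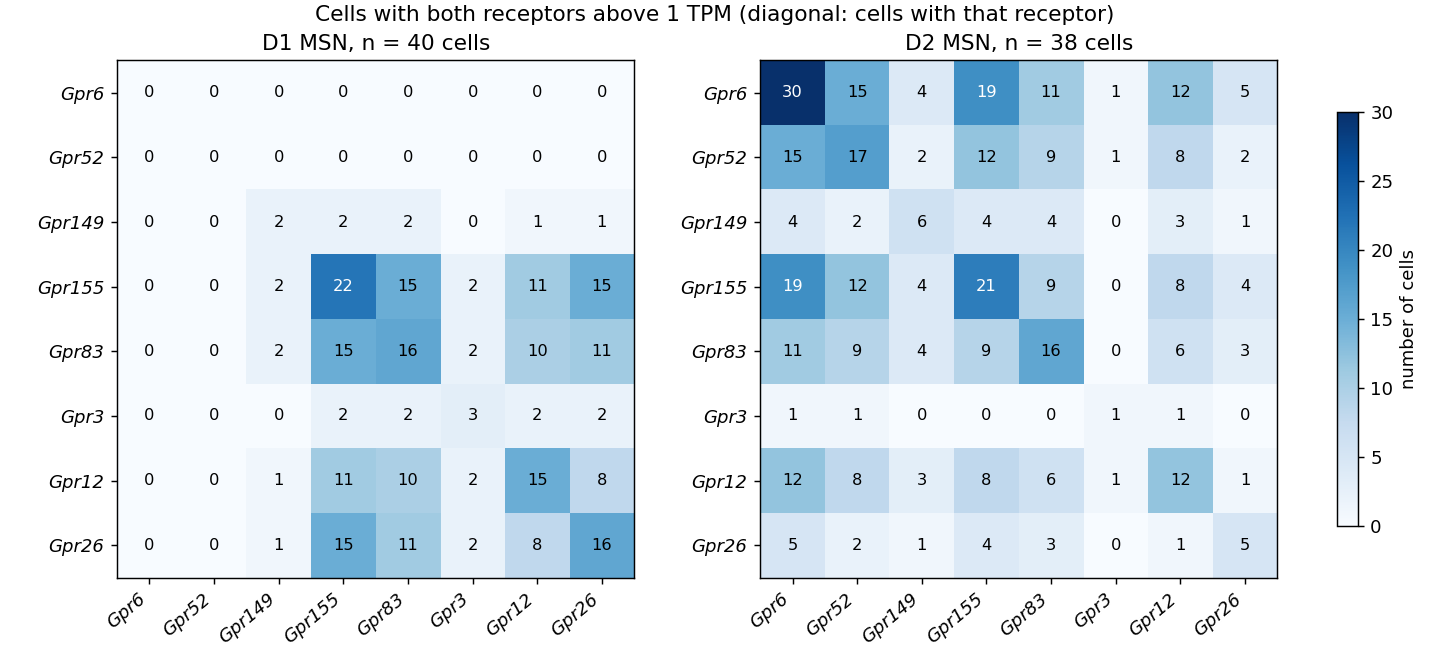
Number of D1 MSN (left, of 40) and D2 MSN (right, of 38) in which both receptors of a pair were above 1 TPM, with the cells that had a receptor at all on the diagonal. Gpr6 with Gpr155 is the most frequent pair in D2 MSN, with 19 cells, and Gpr155 with Gpr83 and Gpr155 with Gpr26 are the most frequent in D1 MSN, with 15 cells each.

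These pairs in D1 MSN went with the number of genes found. The 22 D1 MSN with Gpr155 had 5239 to 8657 genes above 1 TPM (median 6566.5), and the 18 without it had 648 to 5730 (median 4408.5). For Gpr26 the medians were 6842 with and 4926 without, and for Gpr83 they were 6650 and 4926. In D2 MSN the medians with and without were 5627 and 4187 for Gpr155, 6039 and 3979 for Gpr52, and 5570 and 4338 for Gpr6. The part of the genes found per cell in the co-detection was not tested.

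D1 MSN had 0 to 5 of the 8 receptors above 1 TPM, with a median of 2, and D2 MSN had 0 to 6, with a median of 3. None of the 8 was found in 12 D1 MSN and in 1 D2 MSN. Without Gpr6 and Gpr52, the mean number was 1.85 in D1 MSN and 1.61 in D2 MSN. The number went with the genes found, with r of 0.84 over the D1 MSN and 0.69 over the D2 MSN. The 20 D1 MSN with the fewest genes had 0.6 receptors on average, and the other 20 had 3.10. The D2 MSN with 6 receptors were 1 cell on each large plate, with 7042 and 4494 genes. The former had Gpr6 at 171, Gpr52 at 355, Gpr149 at 46.4, Gpr155 at 62.6, Gpr83 at 9.27 and Gpr12 at 81.4 TPM. The latter was at 0 for Gpr52 and had the highest Gpr149, at 118 TPM.

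**Figure D5:**
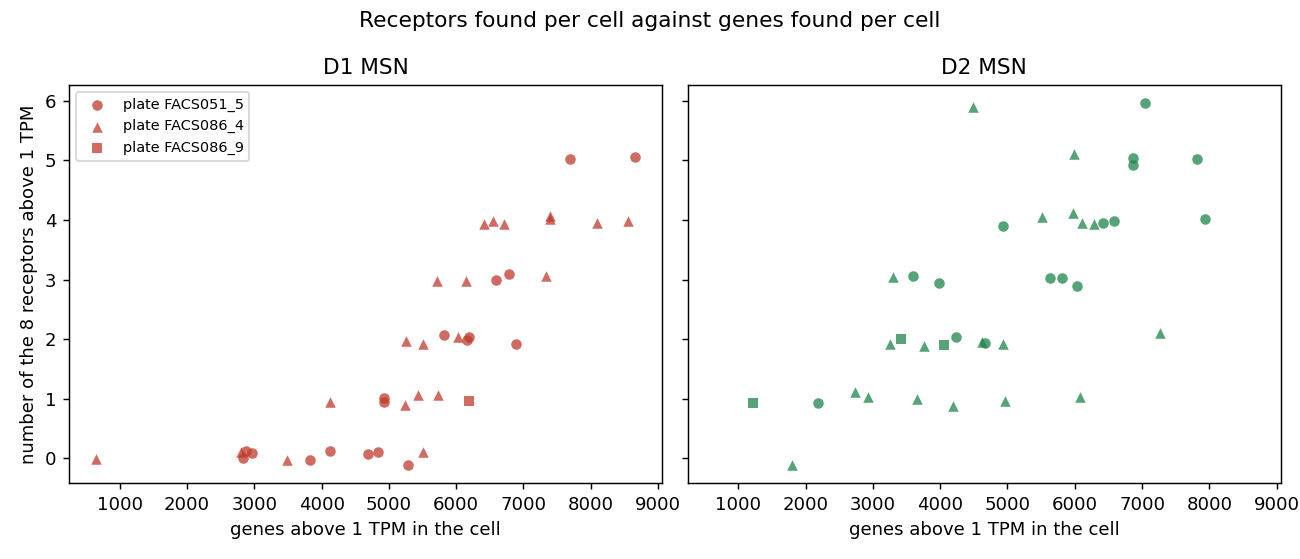
Number of the 8 receptors above 1 TPM in a cell against the number of genes above 1 TPM in it, for D1 MSN (left) and D2 MSN (right), with symbols for plates and points moved slightly up or down. D1 MSN climb from 0 receptors at low gene numbers to 5 in the richest cell, with 8657 genes, and D2 MSN spread more widely.

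The genes most like each receptor were taken by Pearson's r of log2 TPM plus 1, among 7768 genes above 1 TPM in at least 20 MSN. Over the 78 MSN, those most like Gpr6 were Penk (0.77), Adora2a (0.68), Drd2 (0.63), Vamp7 (0.54) and Arl2 (0.50), the first 3 being D2 MSN markers. Within the 38 D2 MSN they were Lrrc4c (0.64), Tmem59 (0.63), Klhl13 (0.62), Sdhb (0.62) and Atp5c1 (0.62), so none of those markers was among the 5 once D1 MSN were left out. Within D2 MSN, Gpr52 was most like Meaf6 (0.78), Zfhx2 (0.72), Uvrag (0.71), Mrps26 (0.70) and AU040320 (0.70). Within D2 MSN, r with the number of genes found was 0.58 for Gpr52 and 0.38 for Gpr6. The part of the genes found in these likenesses was not tested.

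Gpr155 was most like Adcy9, a membrane adenylyl cyclase, over the MSN (0.54), ahead of Bsn (0.53), Rgs4 (0.51), Kcna4 (0.50) and Vps53 (0.49). Adcy9 was also among the 5 within D2 MSN (0.57), behind Flna (0.62) and Ccdc30 (0.60) and ahead of Setd3 (0.56) and Gas7 (0.56), and not within D1 MSN, where Cacng3 led with 0.71. Bsn, which codes for the presynaptic scaffold protein Bassoon, was among the 5 within D1 MSN for both Gpr155 (0.66) and Gpr26 (0.70). In the same cells, r with the number of genes found was 0.63 for Gpr155 and 0.66 for Gpr26. Gpr12 was most like Vps39 (0.49), Ppil1 (0.49), Arpc5 (0.48), Il34 (0.47) and St6galnac5 (0.46). For Gpr83 the leading gene was Usp17la (0.53), followed by 4 predicted genes down to 0.50, and for Gpr26 it was the predicted gene Gm38198 (0.60), followed by Tmem44 (0.56).

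The FACS fluorescence of each cell was set beside its receptors. In D2 MSN, r with the EGFP channel was -0.20 for Gpr6, -0.20 for Gpr52, -0.31 for Gpr83, -0.29 for Gpr12 and -0.13 for Gpr155 over 38 cells. In D1 MSN, r with the TdTomato channel was 0.38 for Gpr155, 0.36 for Gpr26, 0.34 for Gpr83 and 0.28 for Gpr12 over 40 cells. The TdTomato channel of D1 MSN differed by plate, with 1001 to 2726 on FACS051_5 and 1787 to 4451 on FACS086_4. Values of r within a plate were not taken. The cells of a group share plates and differ in the number of genes found, and the values of r are given as a description.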

How the data were processed

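The cells were sorted into plates and cDNA of each was made with the SMARTer Ultra Low Input kit. The study's methods and the submitters' processing notes name STAR 2.5.0, mm10/GRCm38 with EGFP, TdTomato and Gpr52 added to the annotation, and featureCounts 1.5.1. The deposited values were TPM per gene and cell, made by the authors, and how TPM were computed is not given in the sources used here. TPM keep no depth, so a value of 0 comes with no detection limit.

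The 8 receptors and all lists were chosen with earlier results of these data known. EGFP cells counted as cholinergic interneurons at over 100 TPM of Chat, which was decided with these values known. A gene was found in a cell above 1 TPM. Shares have exact Clopper-Pearson 95% intervals, which cover counting error only. The log2 fold was taken between means of TPM plus 1 of D1 over D2 MSN, and counted past 1 or -1 for genes averaging at least 1 TPM. No test was made, since the labels name no animal and each group is then 1 sample. Named genes were the 8 receptors, the 5 genes of highest correlation for receptors above 1 TPM in at least 20 MSN (or in 10 cells of a subtype), and list genes past a fold of 2 with a mean of at least 10 TPM and 1 direction on both large plates. Other genes were named after their values were seen or as markers and relatives. Gene positions were from GENCODE M21 (Gpr52 from RefSeq), promoter windows from RefSeq (GRCm38.p6). Alternatives changed the pseudocount, the mean, the scaling, the filter, the detection limit and the cells. The scripts ran in Python 3.11.15 with the packages pandas 2.3.3 and numpy 2.4.6, intervals came from scipy 1.17.1, and plots from matplotlib 3.10.9. Values of some single genes are not reported here.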

Additional observations from a re-analysis of the deposited data

How the results depend on the processing

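No direction of a counted fold was reversed under the alternatives run. With a pseudocount of 10 TPM, 2 receptors had a log2 fold below -1, as did 3 other Gpr genes and 520 of all genes, and above 1 were 2 other Gpr genes, 1 gene of cyclic AMP signalling and 727 of all genes. When means were taken on the log2 scale, the counts below -1 were 2, 1 and 246 for receptors, other Gpr genes and all genes, and those above 1 were 0, 2 and 695 for other Gpr genes, cyclic AMP signalling and all genes. Rescaling to the upper quartile gave 9, 15 and 3735 genes below -1 for other Gpr genes, cyclic AMP signalling and all genes. Asking for a mean of 10 TPM gave 1 and 2 other Gpr genes above and below, 3 genes of cyclic AMP signalling above, and 949 and 732 of all genes, since fewer genes are counted. Without FACS051_5, 2 receptors were above 1, Gpr52 was found in 27.3% of D2 MSN and both Gpr6 and Gpr52 in 22.7%. Without FACS086_4, 2 receptors were above 1, and 8 other Gpr genes and 8 genes of cyclic AMP signalling were below -1. With cholinergic interneurons kept, 5 genes of cyclic AMP signalling were above 1, and without the highest cell of each subtype, chosen after seeing the data, 5 other Gpr genes were. For the other moves the cause was not tested. The log2 fold ranged from -9.72 to -4.39 for Gpr6, -4.02 to -0.42 for Gpr149, -1.54 to -0.63 for Gpr83, -2.25 to 1.06 for Gpr12, -1.03 to 1.12 for Gpr155, 0.21 to 1.85 for Gpr26 and 0.13 to 2.65 for Gpr3. Without FACS051_5, Gpr155 and Gpr12 changed sign, neither being past a fold of 2 over all plates. Of 150 counts and shares that answer a comparison under all alternatives, 122 stayed within 1.5 times the reported count or within the 95% interval of the reported share. The 6 receptors below -1 without FACS086_4 were within this limit. The 2 receptors below -1 with a pseudocount of 10 TPM, and the 2 with means on the log2 scale, were outside it. Taking the mean of the folds within the large plates, which compares subtypes sorted onto the same plate, gave -7.55 for Gpr6, -1.19 for Gpr83 and 4 receptors below -1. Depth per cell is unknown, and with cells of few genes, of 1 plate or of 1 animal, a value of 0 may be a transcript that was missed.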
